A study of Rattus norvegicus with 12 samples.

Results

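Chemokines are the small secreted proteins that direct leukocytes through tissue, and their receptors sit on the cells that respond. The genes of both kinds were taken by symbol from the 2 deposited expression tables of rat diabetic wounds: every gene whose symbol starts with *Ccl*, *Cxcl*, *Cx3cl*, *Xcl*, *Ccr*, *Cxcr*, *Cx3cr*, *Xcr* or *Ackr* and goes on with a number. The rule uses no measured value. It found 56 members, 33 ligands and 23 receptors, present in both the table of 25620 genes with read counts and the table of 25524 genes with FPKM values. FPKM, fragments per kilobase of gene scaled to the library's size, was used to set genes beside each other. CPM, read counts scaled to a common library total after TMM normalization, was used to set libraries beside each other for 1 gene.

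Chemokines are grouped by the spacing of their first cysteines into the CC, CXC, CX3C and XC families. The typical receptors couple to inhibitory G proteins and steer the migration of neutrophils (CXCR1, CXCR2), monocytes (CCR1, CCR2, CX3CR1), activated T cells and NK cells (CXCR3, CXCR6), eosinophils (CCR3), B cells (CXCR5) and the cells that travel to lymph nodes (CCR7), while the atypical receptors (the *Ackr* genes) bind and clear ligands without that signal. In skin wounds, neutrophil and monocyte ligands are known as products of the early inflammatory phase, and keratinocytes, fibroblasts and endothelium all make chemokines. Most chemokines also bind the sulfated sugar chains of the tissue matrix.

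The tissue came from full-thickness punch wounds on the back of male SD rats made diabetic with streptozotocin, a toxin of the pancreatic beta cell. Every library, the controls included, is thus from an animal with this chemically induced diabetes. The wounds received saline (control), d-SMG (the dried mucus gel of the snail *A. fulica*), GAG (the sulfated glycosaminoglycan isolated from that mucus, s-GAG in the study's text) or Alg (a commercial alginate dressing), and were sampled on day 3, 7 and 14. There was 1 library for each treatment and day, 12 in all, and the labels name the tissue skin. The labels do not say whether a library holds 1 animal or a pool. The comparisons made are those the design gives: each dressing with the control of the same day, each dressing with the control over the 3 days, and the days with each other over the 4 treatments.

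Many ligands and receptors share a chromosome, with 14 receptors on chromosome 8, 11 ligands on chromosome 10 and 8 ligands on chromosome 14. These chromosomes are as given with the deposited read counts. The promoters of 6 ligands on chromosome 14 are shown because the libraries differed widely in these genes, the first 3 being ligands of CXCR3 and the last 3 ligands of CXCR2. The sequences are from RefSeq on the build GRCr8. They run 5′ to 3′ on the gene's own strand from 250 bases before the start site to its first 50 bases. Capitals mark where the letters GGGNNNTTCC (a core of the binding site of NF-kB) or GAAANNGAAA (a core of the interferon-stimulated response element) occur on either strand. The windows lie at chr14:16006916-16007215 for *Cxcl9*, chr14:15988816-15989115 for *Cxcl10*, chr14:15973478-15973777 for *Cxcl11* (plus strand) and at chr14:17479272-17479571 for *Cxcl1*, chr14:17467206-17467505 for *Cxcl2* and chr14:17596368-17596667 for *Cxcl6* (minus strand).
Cxcl9: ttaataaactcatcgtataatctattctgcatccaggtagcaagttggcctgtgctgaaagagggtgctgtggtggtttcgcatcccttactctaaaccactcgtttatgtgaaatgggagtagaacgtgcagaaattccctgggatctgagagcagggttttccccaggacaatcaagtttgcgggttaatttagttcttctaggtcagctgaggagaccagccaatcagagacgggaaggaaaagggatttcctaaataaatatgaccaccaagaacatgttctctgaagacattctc
Cxcl10: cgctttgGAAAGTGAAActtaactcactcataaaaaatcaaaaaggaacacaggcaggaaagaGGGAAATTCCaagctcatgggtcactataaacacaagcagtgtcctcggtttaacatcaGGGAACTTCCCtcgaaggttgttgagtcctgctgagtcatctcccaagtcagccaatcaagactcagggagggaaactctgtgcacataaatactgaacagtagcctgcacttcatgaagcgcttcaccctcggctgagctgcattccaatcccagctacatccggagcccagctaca
Cxcl11: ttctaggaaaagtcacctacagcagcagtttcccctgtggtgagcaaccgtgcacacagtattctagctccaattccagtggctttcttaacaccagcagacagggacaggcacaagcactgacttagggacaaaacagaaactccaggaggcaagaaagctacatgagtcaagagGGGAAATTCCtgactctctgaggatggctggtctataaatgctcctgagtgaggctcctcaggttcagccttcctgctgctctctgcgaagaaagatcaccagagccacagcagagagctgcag
Cxcl1: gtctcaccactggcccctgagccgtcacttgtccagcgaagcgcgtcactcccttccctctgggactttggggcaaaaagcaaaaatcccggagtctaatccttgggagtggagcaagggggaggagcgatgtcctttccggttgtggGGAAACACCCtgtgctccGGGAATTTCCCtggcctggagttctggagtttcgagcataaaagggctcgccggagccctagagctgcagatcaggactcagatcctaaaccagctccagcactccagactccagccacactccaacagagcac
Cxcl2: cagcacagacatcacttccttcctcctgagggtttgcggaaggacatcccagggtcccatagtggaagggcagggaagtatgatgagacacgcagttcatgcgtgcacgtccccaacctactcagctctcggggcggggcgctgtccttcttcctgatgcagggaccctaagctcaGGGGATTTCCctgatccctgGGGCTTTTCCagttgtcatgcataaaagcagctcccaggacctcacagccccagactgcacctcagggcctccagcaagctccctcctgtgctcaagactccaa
Cxcl6: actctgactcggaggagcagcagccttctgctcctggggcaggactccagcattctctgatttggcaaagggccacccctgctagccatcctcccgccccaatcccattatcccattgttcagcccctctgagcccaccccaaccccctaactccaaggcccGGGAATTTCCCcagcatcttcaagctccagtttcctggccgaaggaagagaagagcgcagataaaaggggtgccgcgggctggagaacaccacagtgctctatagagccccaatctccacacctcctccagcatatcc

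RefSeq promoters were matched for 42 of the 56 members. The letters GGGNNNTTCC stood in 10 of these 42 (23.8%), namely *Ccl6*, *Ccl7*, *Ccl9*, *Ccl20*, *Ccr3*, *Cxcl1*, *Cxcl2*, *Cxcl6*, *Cxcl10* and *Cxcl11*, and in 5.37% of all 33469 promoters of the same length. GAAANNGAAA stood in 2 of the 42 (4.76%), those of *Ccl19* and *Cxcl10*, and in 3.92% of all promoters. The *Cxcl9* window holds neither set of letters, and the *Cxcl10* window holds both. Such a match is a string of letters and not a measured binding site.

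The libraries held 13748887 to 38302461 reads on genes. Over all genes, the median rank correlation of a library with the other libraries was 0.923 for GAG day 14 and 0.924 for d-SMG day 3, and higher than these, up to 0.964, for the others. The keratinocyte markers (11 of 13 listed were in the table, all with reads in every library) summed to 61.1 CPM in d-SMG day 3 and to 4832 to 32644 CPM elsewhere. In d-SMG day 3 the markers that define the epithelium of the labelled tissue were thus far lower than in any other library. Skeletal muscle markers (10 of 10) ranged from 4692 CPM in d-SMG day 7 to 202987 CPM in d-SMG day 3. Fibroblast markers (6 of 6) ranged from 6102 to 43436 CPM. Marker sums are given beside some of the chemokine values below, whether or not they move with them. In such tissue RNA, fewer cells of a type and less RNA per cell cannot be told apart.

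Of the 56 members, 42 had at least 1 read in all 12 libraries and 3 (*Ccr10*, *Ccl28*, *Cxcr1*) had under 10 reads over all of them. The mean FPKM was at least 1 for 26 ligands and 8 receptors, 34 members in all, and at least 10 for 10 members. By mean FPKM over the libraries the order began with *Ccl6* (47.8 ± 34.3, SD over n = 12 libraries of different treatment and day), a rodent CC ligand of CCR1, *Ccl21* (41.4 ± 23.0), the CCR7 ligand of lymphatic vessels, *Cxcl9* (40.6 ± 44.6), an interferon-induced CXCR3 ligand, and *Cxcl14* (33.4 ± 21.7), an epithelial and stromal ligand whose receptor is not settled. Neighbours in this order differ by less than these SDs. *Cxcl16*, *Cxcl1*, *Cxcl13*, *Cxcl12* and *Ccl2* stood at 26.5, 19.5, 19.4, 17.1 and 11.8 FPKM, and *Cxcl6* and *Ccl17* stood at 8.43 and 8.21 FPKM.

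The leading ligand differed between libraries. On day 3 it was *Cxcl9* in the control (171.45 FPKM, 29.0% of the FPKM summed over all ligands) and in the GAG library (61.54 FPKM), *Ccl6* in the d-SMG library (31.18 FPKM) and *Ccl21* in the Alg library (39.86 FPKM). On day 7 *Ccl6* led in the control (58.44 FPKM) and the d-SMG library (81.39 FPKM), *Cxcl14* in the GAG library (39.76 FPKM) and *Cxcl16* in the Alg library (23.32 FPKM). On day 14 the leaders were *Ccl6* in the control (89.39 FPKM) and the Alg library (72.68 FPKM), *Cxcl1* in the d-SMG library (83.96 FPKM) and *Cxcl14* in the GAG library (86.72 FPKM).

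**Figure D1:**
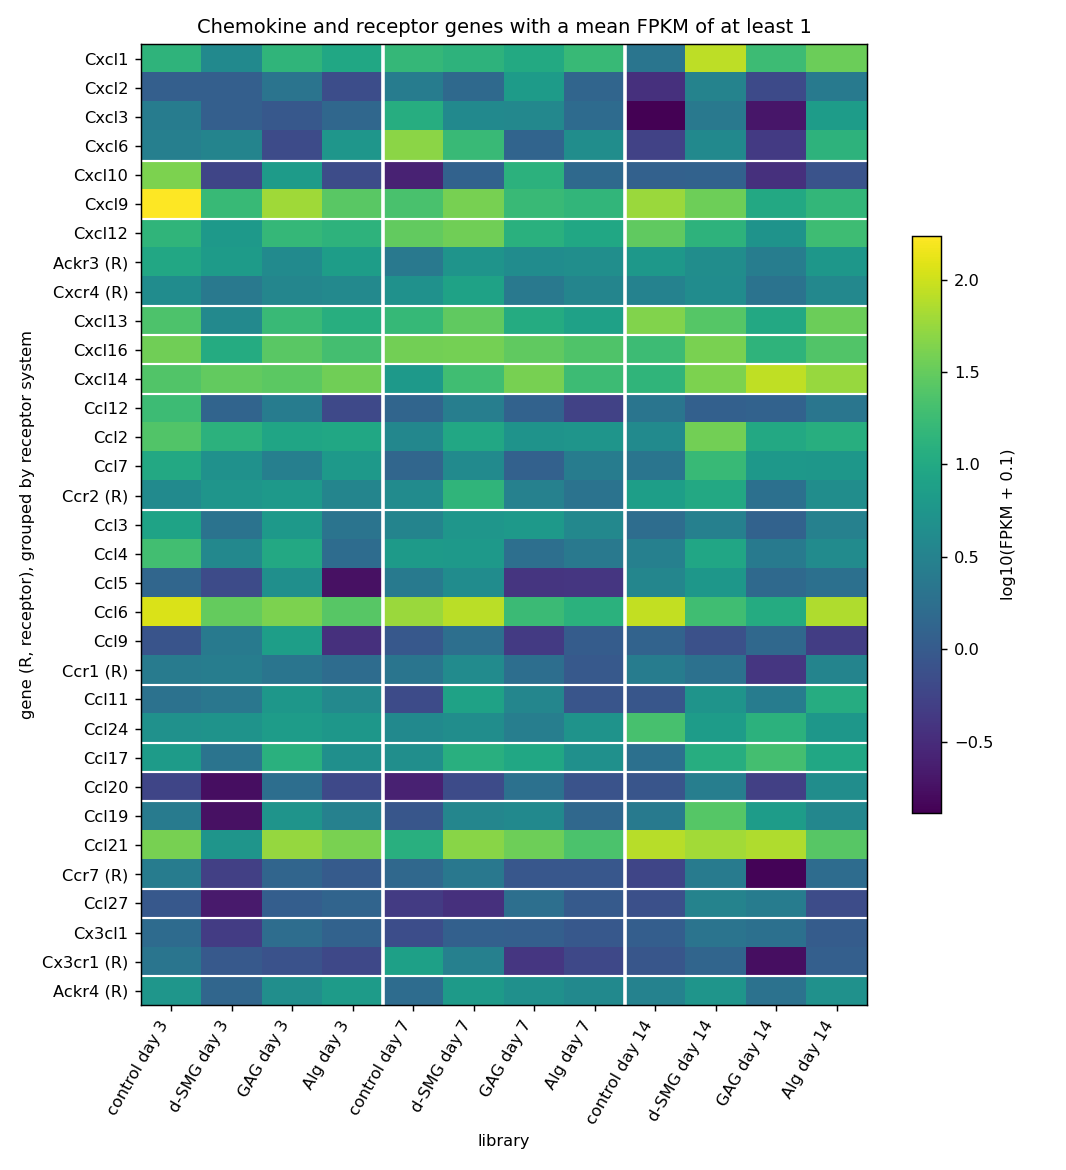
Heat map of 33 members with a mean FPKM of at least 1 (rows, grouped by receptor system, R marking receptors) in the 12 libraries (columns); colour gives log10(FPKM + 0.1). *Ccl6*, *Ccl21*, *Cxcl9* and *Cxcl14* are bright in most libraries, while *Cxcl9* and *Cxcl10* are brightest in the control of day 3.

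The question whether a dressing differed from the control over the whole course was put to edgeR's quasi-likelihood test, with treatment and day as terms and the days as replicates of a treatment (n = 3 libraries each). Of 15354 genes tested 42 were members. No member and no other gene passed an adjusted p of 0.05 for d-SMG (0% of genes called), GAG (0%), Alg (0%) or the 3 dressings together (0%), nor between day 7 and day 3 (0%), day 14 and day 7 (0%) or day 14 and day 3 (0%). The counts at an unadjusted p under 0.05 were 2 of the 42 members for d-SMG, beside 1.29% of all genes, 7 for GAG beside 8.98%, 3 for Alg beside 2.88% and 6 for the 3 dressings together beside 4.5%. As shares of the members these are 4.76, 16.7, 7.14 and 14.3%. For the days they were 6 members (day 7 against day 3, 1.62% of all genes), 4 (day 14 against day 7, 2.82%) and 3 (day 14 against day 3, 4.79%). DESeq2's Wald test called 3 members for GAG, *Cxcl14* higher and *Cx3cr1* and *Cxcl6* lower, beside 1.88% of all genes, and 0 members in the other 6 contrasts. These p-values measure only the spread between these libraries.

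Day by day, each dressing was set beside the 1 control library of that day. There is no replicate, so no test was made. A member counts as 4-fold higher or lower from the ratio of its CPM, where the pair held at least 10 reads, and the bracketed 95% intervals (exact Clopper-Pearson, log2 scale) cover counting error only. The 3 comparisons of a day share their control library. On day 3, 10 of 43 members were at least 4-fold lower with d-SMG, beside 5.21% of all genes, 3 of 45 with GAG beside 1.95% and 11 of 44 with Alg beside 2.11%. Only 1, 1 and 0 members were 4-fold higher, beside 2.58%, 4.79% and 2.86% of all genes. The members' median log2 ratios were −0.80, −0.43 and −0.64, where the medians over all genes were 0.00, −0.04 and −0.01. Members below the control of day 3 numbered 33 of 43 with d-SMG, 26 of 45 with GAG and 32 of 44 with Alg. For GAG the split was nearly even when scaled by library size, with 23 of 45 below.

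On day 7 the picture was mixed. With d-SMG 2 of 45 members were 4-fold higher and 0 lower (all genes 1.4% and 1.93%), with GAG 7 of 46 higher and 4 lower (all genes 4.18% and 3.69%), and with Alg 1 of 42 higher and 7 lower (all genes 2.52% and 2.63%). The members' medians were 0.59, −0.21 and −0.44. On day 14 the counts lay on the higher side for d-SMG, with 11 of 45 members 4-fold higher and 1 lower (all genes 3.09% and 4.82%), and for Alg, with 7 of 42 higher and 1 lower (all genes 3.23% and 3.6%). GAG day 14 had 5 of 41 higher and 6 lower, close to the shares of all genes (10.7% and 13.9%). The members' medians on day 14 were 0.66, 0.00 and 0.20. Over the 9 comparisons 32 of the 49 members with at least 10 reads in some pair (65.3%) passed 4-fold at least once, beside 37.3% of all genes with such reads. All 3 dressings lay on opposite sides of the control on different days for 14 of the 41 members read deeply enough on at least 2 days (34.1%), beside 28.4% of all genes.

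Scaling by library size in place of TMM moved the median of all genes to −0.46 for d-SMG day 3, 0.31 for d-SMG day 7 and −0.48 for GAG day 14, and to between −0.05 and 0.17 for the other 6 comparisons. Under that scaling 0 members were 4-fold higher and 15 lower for d-SMG day 3, 5 higher and 0 lower for d-SMG day 7, and 3 higher and 10 lower for GAG day 14.

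**Figure D2:**
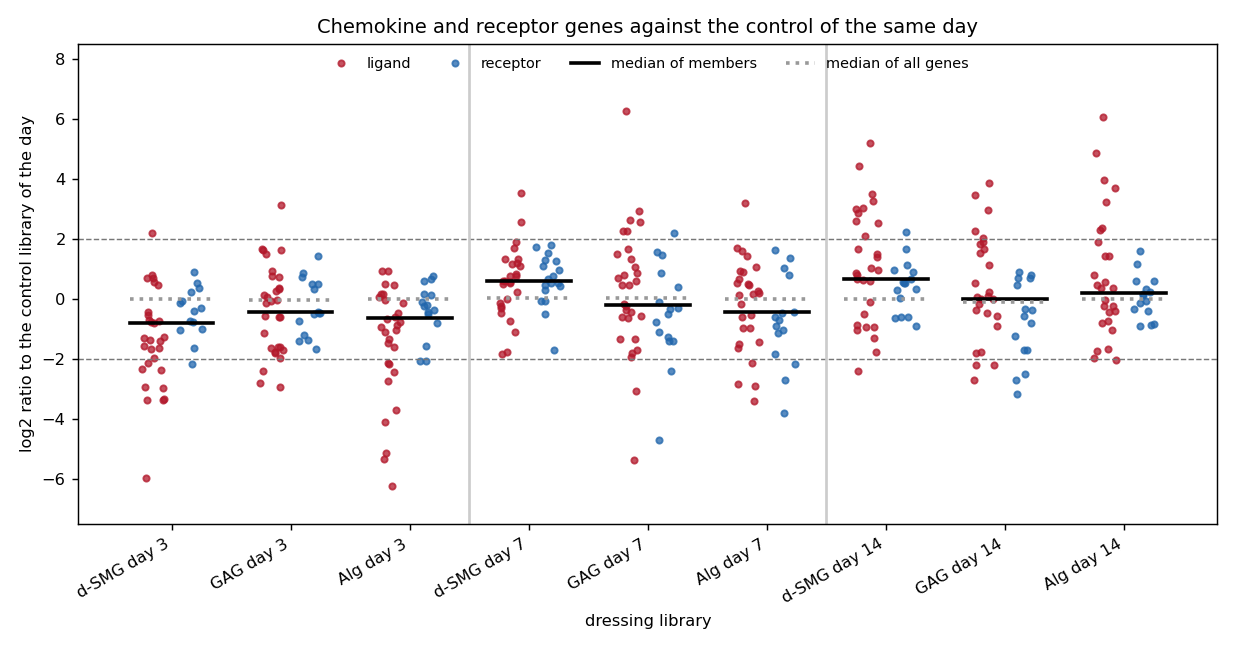
Log2 ratio of CPM to the control library of the same day (vertical axis) for each member with at least 10 reads in the pair, in the 9 dressing libraries (horizontal axis), with counts under 3 set to 3; red points are ligands, blue points receptors, the black bar the median of the members, the dotted bar the median of all genes and the dashed lines 4-fold. Most points lie below 0 on day 3, and the points of d-SMG on day 14 lie mostly above 0, with *Cxcl1* highest at 5.21.

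The ligands of CXCR3, *Cxcl9*, *Cxcl10* and *Cxcl11*, are induced by interferons and attract activated T cells and NK cells. Their promoters, printed above, lie within 33.4 kb of each other. On day 3, *Cxcl9* had 104 CPM in the control, 13.6 with d-SMG, 33.4 with GAG and 15.6 with Alg. *Cxcl10* had 51.9 CPM in the control, 0.832 with d-SMG, 7.43 with GAG and 0.691 with Alg, from 1222, 10, 131 and 14 reads. *Cxcl11* followed with 141 in the control, 7 with d-SMG, 31 with GAG and 1 with Alg (reads). All 3 genes were highest in the control and lower in each dressing library on day 3, and GAG lay closest to the control. The log2 ratios of *Cxcl10* were −5.96 (−7.03 to −5.08) for d-SMG, −2.81 (−3.08 to −2.55) for GAG and −6.23 (−7.11 to −5.48) for Alg, while those of *Cxcl9* were −2.93 (−3.17 to −2.70) for d-SMG, −1.63 (−1.76 to −1.50) for GAG and −2.73 (−2.91 to −2.56) for Alg. For *Cxcl11* they were −3.36 (−4.70 to −2.28) for d-SMG, −1.77 (−2.38 to −1.20) for GAG and −6.92 (−12.24 to −4.42) for Alg, the last from 1 read.

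On day 7 the control was no longer the highest library. *Cxcl10* had 0.203 CPM in the control, 1.2 with d-SMG, 15.8 with GAG and 1.86 with Alg, where the control count was 3 reads. With GAG the gene thus stood at 621 reads and a log2 ratio of 6.28 (4.73 to 8.56), the highest of any member among the ratios with at least 3 reads on both sides. The ratios were 2.56 (0.84 to 4.93) for d-SMG and 3.19 (1.50 to 5.55) for Alg. *Cxcl11* had 25 reads in the GAG library and 0 in the control of day 7, at least 3.13-fold higher, and 2 reads in each of the other two. *Cxcl9* had 13.3 CPM in the control, 20.04 with d-SMG, 9.83 with GAG and 9.28 with Alg, a far narrower range than on day 3. On day 14 *Cxcl10* lay between 0.39 and 1.36 CPM in all 4 libraries, and *Cxcl9* had 34.5 CPM in the control, 18.9 with d-SMG, 7.47 with GAG and 8.45 with Alg. *Cxcl9* was therefore lower than the control of its day in 8 of the 9 dressing libraries, all but d-SMG day 7. Over the 3 days the difference was −1.47 ± 0.44 (SE), adjusted p = 0.957 for the 3 dressings together in edgeR's quasi-likelihood test, which does not pass the threshold.

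*Cxcr3* itself had few reads, 5 to 48 per library. It had 0.85 CPM in the control, 0.416 with d-SMG, 1.53 with GAG and 0.79 with Alg on day 3. On day 14 it had 1.36 CPM in the control, 3.0 with d-SMG, 0.909 with GAG and 1.07 with Alg. The control of day 3, where the 3 ligands were highest, was thus not the library with the most *Cxcr3*. On day 7 it had 1.49 CPM in the control, 2.15 with d-SMG, 0.56 with GAG and 0.331 with Alg, with d-SMG highest as for *Cxcl9*. T and NK cell markers (9 of 10 in the table, with *Cd8b* at 0 reads in GAG day 14) summed on day 3 to 304 CPM in the control, 177 with d-SMG, 209 with GAG and 173 with Alg. *Cd4* carried most of that sum, with 282 CPM in the control, 148 with d-SMG, 175 with GAG and 154 with Alg. The T cell genes *Cd3d*, *Cd3e* and *Cd3g* had 0.77 to 1.06 CPM in the control and 0.17 to 0.50 with d-SMG. They had 3.40 to 4.76 CPM with GAG and 0.99 to 2.17 with Alg, so the sum is close to a value of *Cd4* alone and does not measure T cells. The median log2 ratio of the 9 markers was −0.90 for d-SMG, 1.24 for GAG and −0.32 for Alg. With GAG, 3 markers were at least 4-fold higher. For GAG the sum thus lay below the control and the median above it, so the sum does not stand for the list as a whole. *Ifng*, the cytokine that induces these ligands, had 0 to 5 reads per library. *Irf1*, an interferon-induced regulator, had 54.7 CPM in the control, 16.1 with d-SMG, 20.01 with GAG and 17.7 with Alg on day 3. On that day it was highest in the same library as the ligands. On day 7 *Irf1* had 19.98 CPM in the control, 25.6 with d-SMG, 13.5 with GAG and 12.6 with Alg. Its highest library was then d-SMG, as for *Cxcl9*, and not GAG, as for *Cxcl10* and *Cxcl11*. On day 14 the control was highest for *Irf1* (22.2 CPM), as for *Cxcl9* and *Cxcl10* but not *Cxcl11*. The part of *Irf1* in the result was not tested.

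**Figure D3:**
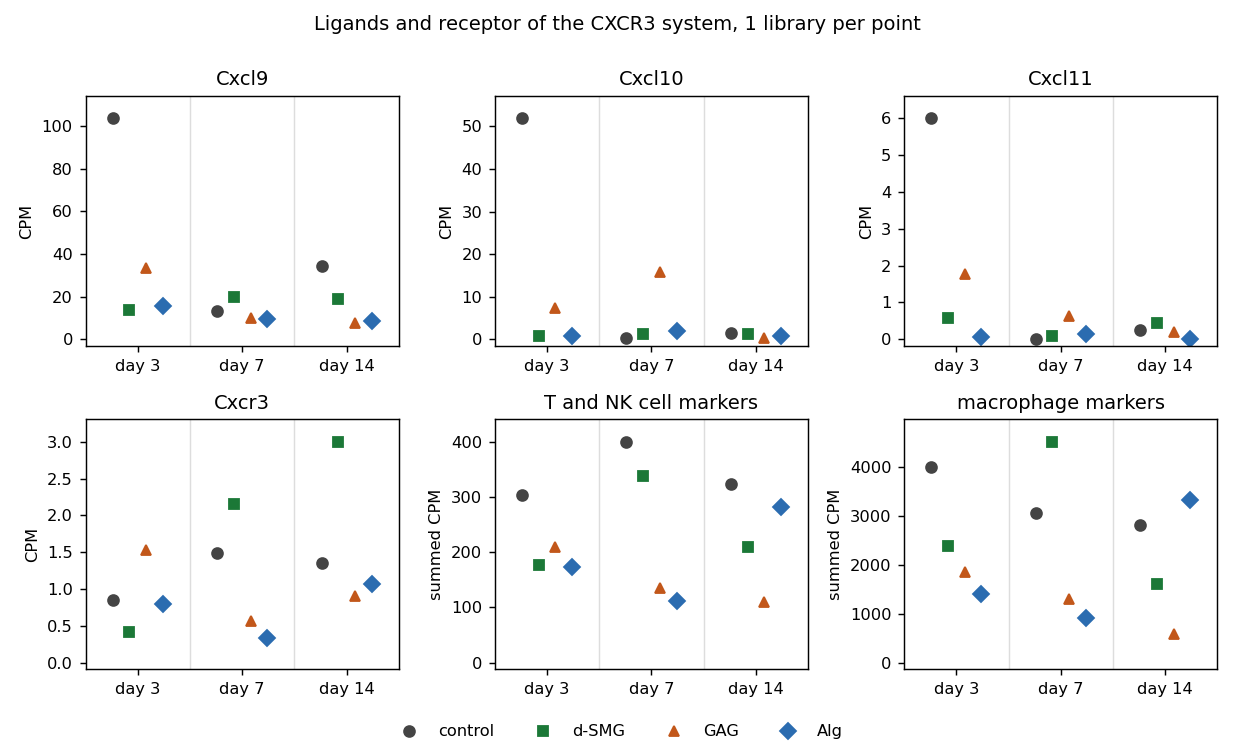
CPM of *Cxcl9*, *Cxcl10*, *Cxcl11* and *Cxcr3* and summed CPM of T and NK cell and macrophage markers (vertical axes) by day (horizontal axis); each point is 1 library, with colour and shape for the treatment. The control of day 3 stands far above all other libraries for the 3 ligands but not for *Cxcr3*. The T and NK cell sum is mostly *Cd4*.

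*Cxcl1*, *Cxcl2*, *Cxcl3* and *Cxcl6* encode ligands of CXCR2, the receptor by which neutrophils enter wounds. The first 2 and *Cxcl6* lie within 129 kb of each other and carry the letters of the NF-kB core in the promoters printed above. On day 14 *Cxcl1* had 2.04 CPM in the control, 75.6 with d-SMG, 22.6 with GAG and 32.0 with Alg. The control was the lowest library of all 12 and d-SMG the highest, with log2 ratios of 5.21 (4.77 to 5.69) for d-SMG, 3.47 (3.01 to 3.97) for GAG and 3.98 (3.52 to 4.47) for Alg. On day 3 the gene had 14.1 CPM in the control, 5.41 with d-SMG, 12.9 with GAG and 8.89 with Alg. On day 7 its levels were close together, with 15.9 CPM in the control, 11.5 with d-SMG, 10.2 with GAG and 17.4 with Alg. So *Cxcl1* was lower than the control with each dressing on day 3, and higher with each on day 14. The GAG ratio of day 3, −0.13 (−0.38 to 0.11), held 0 in its interval and turned to 0.04 when scaled by library size. Over the 3 days the change was 0.67 ± 1.02 (SE), adjusted p = 1.0 for d-SMG (edgeR's quasi-likelihood test), far within the spread between days.

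*Cxcl6* lay below the control with each dressing on day 7 and, with d-SMG and Alg, above it on day 14. On day 7 it had 90.2 CPM in the control, 26.4 with d-SMG, 2.19 with GAG and 8.42 with Alg. The control held 1331 reads, and the ratios were −1.77 (−1.92 to −1.63) for d-SMG, −5.36 (−5.70 to −5.05) for GAG and −3.42 (−3.69 to −3.16) for Alg. On day 14 it had 0.776 CPM in the control, 6.26 with d-SMG, 0.779 with GAG and 22.7 with Alg. The ratios were then 3.01 (2.24 to 3.87) for d-SMG, 0.01 (−1.20 to 1.18) for GAG and 4.87 (4.15 to 5.69) for Alg. The control was the highest library on day 7 and, level with GAG, the lowest on day 14. GAG gave the lowest *Cxcl6* of the 4 treatments on day 3 as well (17 reads beside 99 to 197), and over the days its difference from the control was −3.58 ± 1.28 (SE), adjusted p = 0.512 by edgeR's quasi-likelihood test.

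*Cxcl3* followed the shape of *Cxcl6*: it had 17.7 CPM in the control, 4.97 with d-SMG, 5.42 with GAG and 2.45 with Alg on day 7. On day 14 there was 1 read in the control, 50 in the d-SMG, 3 in the GAG and 155 in the Alg library. The day 14 ratios were 6.01 (3.47 to 11.34) for d-SMG and 7.65 (5.16 to 12.97) for Alg, wide because they rest on that 1 read. *Cxcl2* was highest in GAG day 7 at 7.84 CPM, and on day 14 had ratios of 3.51 (2.29 to 5.02) for d-SMG, 1.54 (0.04 to 3.22) for GAG and 3.22 (1.98 to 4.74) for Alg. These 4 genes are close relatives, and the counter that split reads between them is not given in the sources used here, so each gene's own value is less certain than their sum. That sum was 127 CPM in the control, 44.3 with d-SMG, 25.6 with GAG and 29.9 with Alg on day 7, and 3.15 CPM in the control, 88.3 with d-SMG, 24.4 with GAG and 67.2 with Alg on day 14.

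The receptor side was thin. *Cxcr2* had 3 in the control, 2 with d-SMG, 5 with GAG and 5 with Alg on day 3 (reads). It had 32 in the control, 43 with d-SMG, 16 with GAG and 5 with Alg on day 7, and 7 in the control, 8 with d-SMG, 0 with GAG and 12 with Alg on day 14. *Cxcr1* had 1 read in all 12 libraries. *Cxcr2* was thus highest in the control and d-SMG libraries of day 7, with ratios of −2.41 (−3.38 to −1.50) for GAG and −2.71 (−4.43 to −1.34) for Alg. The 0 reads of GAG day 14 allow a share of up to 1.52e-05% of that library's reads (3 reads). Neutrophil markers (9 of 10 in the table, 5 with reads in every library, *Cd177* at 0 in 9 libraries) summed to 108 CPM in the control, 109 with d-SMG, 48.3 with GAG and 71.1 with Alg on day 7 and 38.1 CPM in the control, 54.2 with d-SMG, 54.1 with GAG and 173 with Alg on day 14. The day 14 median log2 ratios of 6 neutrophil markers with at least 10 reads were −0.23 for d-SMG, −0.67 for GAG and 1.17 for Alg. For d-SMG and GAG the median and the sum of these markers thus differ in sign. Their part in the result was not tested.

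**Figure D4:**
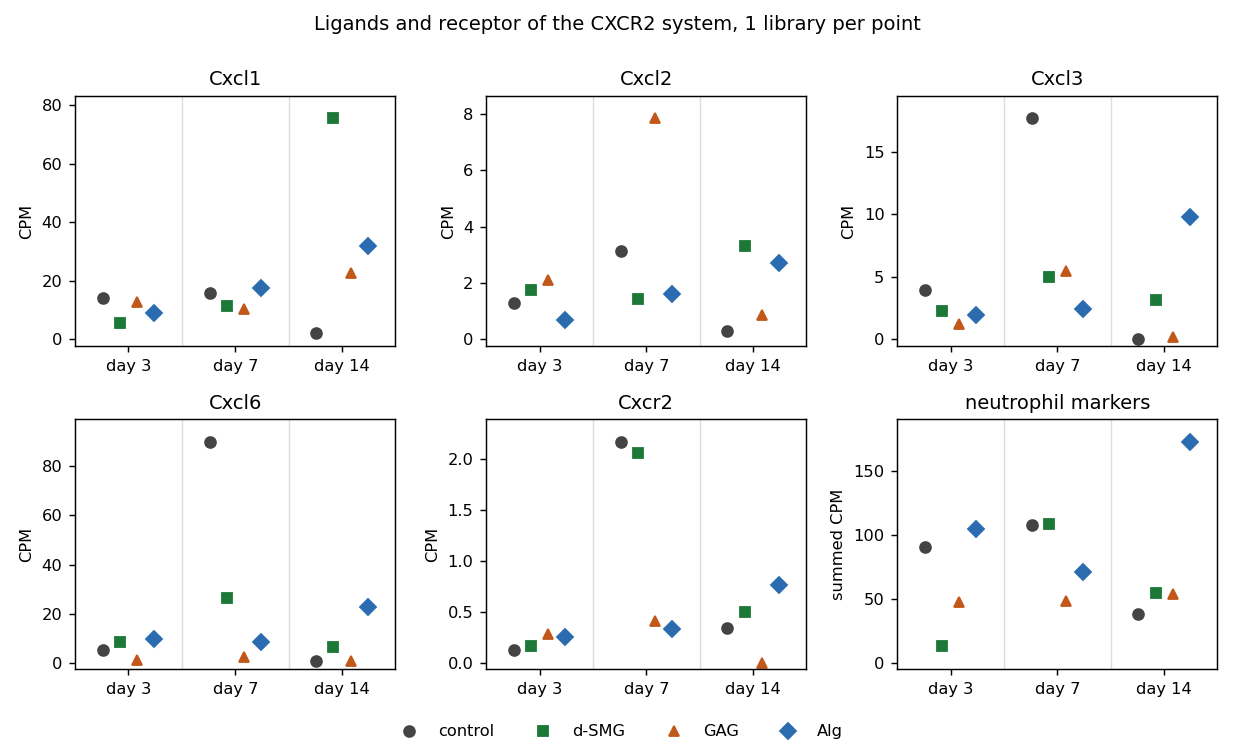
CPM of *Cxcl1*, *Cxcl2*, *Cxcl3*, *Cxcl6* and *Cxcr2* and summed CPM of neutrophil markers (vertical axes) by day (horizontal axis); each point is 1 library, with colour and shape for the treatment. The control stands highest for *Cxcl3* and *Cxcl6* on day 7 and at or near the bottom for all 4 ligands on day 14. The neutrophil sum of Alg day 14 is mostly *S100a9*.

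*Ccl2*, *Ccl7* and *Ccl12* encode ligands of CCR2, which brings monocytes into tissue. *Ccl2* had 20.8 CPM in the control, 15.3 with d-SMG, 6.8 with GAG and 7.5 with Alg on day 3. On day 7 it had 3.05 CPM in the control, 6.89 with d-SMG, 4.2 with GAG and 4.84 with Alg. The values of day 14 were 3.35 CPM in the control, 27.6 with d-SMG, 10.5 with GAG and 9.08 with Alg. The control was the highest library on day 3 and the lowest on days 7 and 14. The ratios were −0.44 (−0.70 to −0.20) for d-SMG, −1.61 (−1.91 to −1.32) for GAG and −1.47 (−1.75 to −1.21) for Alg on day 3. They were 3.04 (2.68 to 3.43) for d-SMG, 1.65 (1.24 to 2.08) for GAG and 1.44 (1.02 to 1.88) for Alg on day 14. *Ccl12* showed the day 3 side of this most: 246 in the control, 12 with d-SMG, 24 with GAG and 6 with Alg (reads), with ratios of −3.39 (−4.36 to −2.56) for d-SMG, −2.94 (−3.61 to −2.34) for GAG and −5.14 (−6.60 to −4.00) for Alg. All 3 dressings were thus over 4-fold lower, while on day 14 its 9 to 24 reads gave ratios whose intervals all held 0. *Ccl7*, next to *Ccl2* in function, had a ratio of 2.86 (2.35 to 3.42) with d-SMG on day 14.

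Between days, *Ccl2* and *Ccl7* were lower on day 7 than on day 3 over the 4 treatments (−1.43 ± 0.55 (SE) and −1.67 ± 0.60 (SE), adjusted p = 0.998 for both in edgeR's quasi-likelihood test) and higher on day 14 than on day 7 (1.27 ± 0.53 (SE) and 1.82 ± 0.60 (SE), adjusted p = 0.908 for both). Neither direction passed the threshold. The receptor *Ccr2* had 21.7 CPM in the control, 40.5 with d-SMG, 30.3 with GAG and 16.9 with Alg on day 3. On day 7 the receptor had 22.3 CPM in the control, 64.6 with d-SMG, 15.8 with GAG and 10.9 with Alg. The values of day 14 were 39.1 CPM in the control, 47.9 with d-SMG, 12.1 with GAG and 21.7 with Alg. The d-SMG library was the highest of the 4 on each of the 3 days, with log2 ratios to the control of 0.90 (0.72 to 1.08), 1.54 (1.36 to 1.71) and 0.29 (0.15 to 0.44). On day 3 this order depended on the scaling, since library size gave 0.44 for d-SMG and 0.66 for GAG. Over the days this came to 0.94 ± 0.44 (SE), adjusted p = 1.0 in edgeR's quasi-likelihood test.

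*Ccr1*, found on monocytes, macrophages and neutrophils, binds *Ccl3*, *Ccl5* and the rodent ligands *Ccl6* and *Ccl9*. The receptor had 5.06 CPM in the control, 7.33 with d-SMG, 3.68 with GAG and 2.91 with Alg on day 3. Its level was 4.06 CPM in the control, 6.93 with d-SMG, 3.28 with GAG and 1.86 with Alg on day 7. By day 14 there were 5.04 CPM in the control, 3.25 with d-SMG, 0.779 with GAG and 5.93 with Alg. It was lowest in the Alg library on days 3 and 7 and in the GAG library on day 14, where the ratio was −2.69 (−3.69 to −1.83). Close relatives of these receptors may share reads with them. Macrophage markers (10 of 10, with reads in every library) summed to 4009 CPM in the control, 2392 with d-SMG, 1843 with GAG and 1407 with Alg on day 3. Their sums were 3053 CPM in the control, 4523 with d-SMG, 1302 with GAG and 919 with Alg on day 7, and 2806 CPM in the control, 1612 with d-SMG, 577 with GAG and 3328 with Alg on day 14. Their lowest library was the same as that of *Ccr1* and of *Ccl6* on each day, and their part in the result was not tested.

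*Ccl6* had 42.8 CPM in the control, 16.3 with d-SMG, 14.0 with GAG and 9.48 with Alg on day 3. The levels on day 7 were 22.4 CPM in the control, 25.9 with d-SMG, 6.44 with GAG and 5.04 with Alg. The values of day 14 were 33.5 CPM in the control, 6.38 with d-SMG, 5.13 with GAG and 25.5 with Alg. It was lower than the control in 8 of the 9 dressing libraries, all but d-SMG day 7, and at least 4-fold lower in 4 of them (Alg day 3, Alg day 7, d-SMG day 14 and GAG day 14). The d-SMG ratio on day 14 was −2.39 (−2.70 to −2.09). By edgeR's quasi-likelihood test the difference over days was −1.94 ± 0.71 (SE), adjusted p = 0.512 for GAG. *Ccl9* behaved otherwise on day 3, with 25 in the control, 58 with d-SMG, 165 with GAG and 7 with Alg (reads) and ratios of 2.18 (1.48 to 2.92) for d-SMG, 3.14 (2.53 to 3.81) for GAG and −1.62 (−3.07 to −0.37) for Alg. *Ccl5*, a ligand made by T cells and macrophages, had 19 in the control, 6 with d-SMG, 45 with GAG and 1 with Alg on day 3 (reads). Its d-SMG ratio of −0.69 (−2.31 to 0.69) held 0, so no difference could be detected with so few reads. The GAG ratio was 1.66 (0.86 to 2.52) and the Alg ratio −4.03 (−9.41 to −1.38). On day 7 *Ccl5* had 22 in the control, 45 with d-SMG, 7 with GAG and 3 with Alg. *Ccl3* and *Ccl4* were highest in the control of day 3 (6.76 and 5.82 CPM) and at least 4-fold lower than it with Alg.

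**Figure D5:**
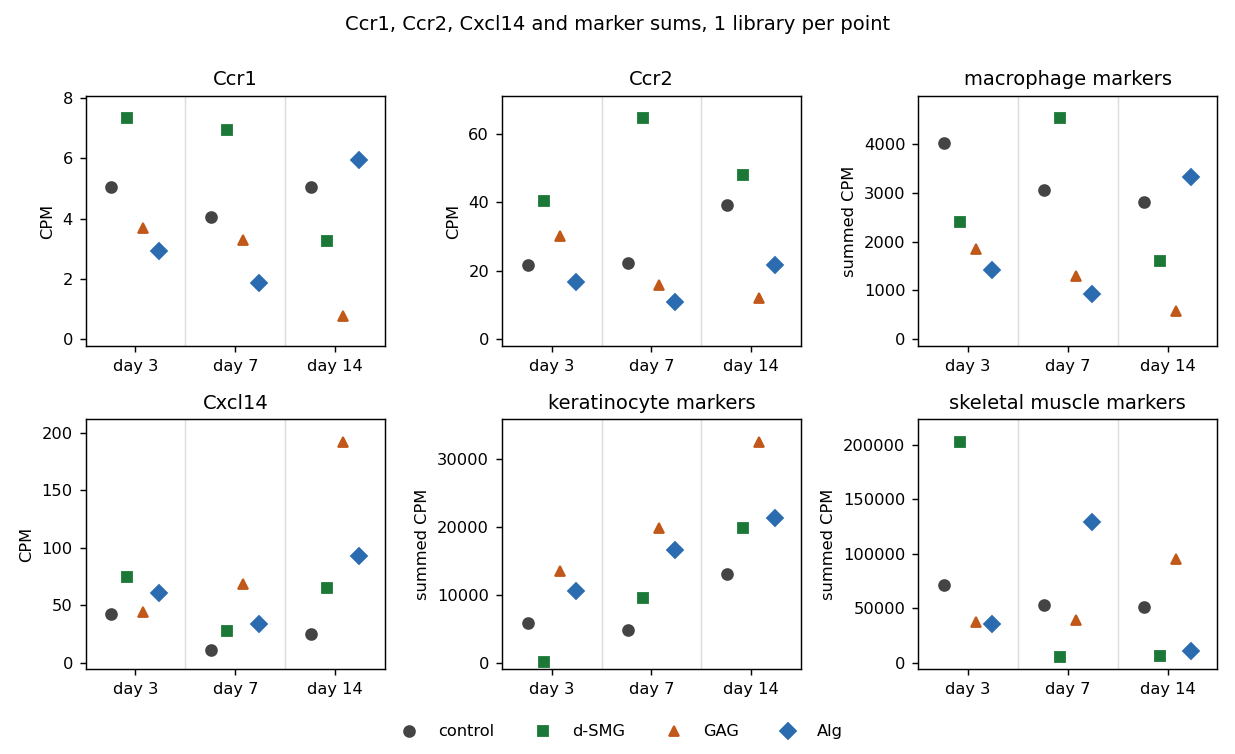
CPM of *Ccr1*, *Ccr2* and *Cxcl14* and summed CPM of macrophage, keratinocyte and skeletal muscle markers (vertical axes) by day (horizontal axis); each point is 1 library, with colour and shape for the treatment. *Ccr1* and the macrophage markers share their lowest library on each day, d-SMG is highest for *Ccr2* on each day (on day 3 not under library-size scaling), and the control is lowest for *Cxcl14* on each day.

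*Cxcl14*, made by keratinocytes and stromal cells, stood above the control with every dressing. It had 42.4 CPM in the control, 74.3 with d-SMG, 44.2 with GAG and 60.2 with Alg on day 3. On day 7 it had 11.0 CPM in the control, 27.5 with d-SMG, 68.7 with GAG and 33.3 with Alg. The values of day 14 were 24.5 CPM in the control, 64.9 with d-SMG, 192 with GAG and 92.3 with Alg. All 9 dressing libraries were above the control of their day, with the largest ratios for GAG, 2.65 (2.42 to 2.88) on day 7 and 2.97 (2.83 to 3.11) on day 14, and the GAG ratio of day 3 was 0.06 (−0.08 to 0.20). In edgeR's quasi-likelihood test this gave 2.03 ± 0.53 (SE), adjusted p = 0.410 for GAG, 1.13 ± 0.50 (SE), adjusted p = 1.0 for d-SMG and 1.26 ± 0.51 (SE), adjusted p = 1.0 for Alg. Keratinocyte markers, summed, were above the control in 8 of the 9 dressing libraries. They summed to 5891 CPM in the control, 61.1 with d-SMG, 13500 with GAG and 10553 with Alg on day 3. Their sums were 4832 CPM in the control, 9556 with d-SMG, 19850 with GAG and 16578 with Alg on day 7, and 13150 CPM in the control, 19907 with d-SMG, 32644 with GAG and 21358 with Alg on day 14. The single markers did not all follow the sum: the median log2 ratio of the 11 was −1.83 for GAG day 14, where 5 were at least 4-fold lower and 1 higher, −0.17 for d-SMG day 14, −5.53 for d-SMG day 3 and 0.66 to 2.12 for the other 6 libraries. The *Cxcl14* ratio in d-SMG day 3 was 0.81 (0.68 to 0.94). The part of these markers in the result was not tested.

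*Ccl11*, the eosinophil ligand eotaxin, was likewise above the control in 9 of 9 dressing libraries. It had 46 in the control, 38 with d-SMG, 98 with GAG and 76 with Alg on day 3 (reads). The reads were 9 in the control, 149 with d-SMG, 142 with GAG and 13 with Alg on day 7, and 17 in the control, 80 with d-SMG, 52 with GAG and 170 with Alg on day 14. Its ratios were 3.55 (2.58 to 4.70) for d-SMG, 2.57 (1.60 to 3.73) for GAG and 0.50 (−0.84 to 1.91) for Alg on day 7. On day 14 they were 2.60 (1.83 to 3.45) for d-SMG, 2.03 (1.22 to 2.92) for GAG and 3.70 (2.98 to 4.51) for Alg. In edgeR's quasi-likelihood test the difference over days was 2.34 ± 0.82 (SE), adjusted p = 1.0 for d-SMG. For the 3 dressings together edgeR gave 2.11 ± 0.72 (SE), adjusted p = 0.967. Its receptor *Ccr3* had 0 to 12 reads per library. The other ligand of that receptor in the table, *Ccl24*, had its 2 highest values in the control (33.3 CPM) and the GAG library (25.8 CPM) of day 14.

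*Ccl17*, a dendritic cell ligand of CCR4, was at least 4-fold above the control in all 3 dressing libraries of day 14: 11 in the control, 49 with d-SMG, 119 with GAG and 42 with Alg (reads), with ratios of 2.52 (1.56 to 3.62) for d-SMG, 3.86 (2.97 to 4.90) for GAG and 2.31 (1.33 to 3.42) for Alg. On day 3 it had 48 in the control, 10 with d-SMG, 61 with GAG and 27 with Alg, where d-SMG was below the control and GAG above it. Dendritic cell markers (6 of 6, *Cd207* at 0 reads in d-SMG day 3) summed to 44.6 CPM in the control, 64.2 with d-SMG, 26.1 with GAG and 42.9 with Alg on day 14. *Ccr4* had 0 to 5 reads per library. *Ccl22*, which shares that receptor, stayed between 0.58 and 2.27 CPM.

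*Cxcl12*, the stromal ligand of CXCR4 and of the atypical receptor ACKR3, had 107 CPM in the control, 64.5 with d-SMG, 104 with GAG and 96.0 with Alg on day 3. By day 7 the level was 233 CPM in the control, 230 with d-SMG, 92.6 with GAG and 74.8 with Alg. By day 14 it had 223 CPM in the control, 90.6 with d-SMG, 48.7 with GAG and 127 with Alg. All 9 dressing libraries were below the control, from −2.19 (−2.31 to −2.08) for GAG day 14 to −0.02 (−0.08 to 0.05) for d-SMG day 7. The direction was not the same in all 9 when scaled by library size, which gave 0.28 for d-SMG day 7 and 0.14 for GAG day 3. Over the days it was −1.11 ± 0.52 (SE), adjusted p = 0.560 for GAG (edgeR's quasi-likelihood test). Fibroblast markers summed to 7836 CPM in the control, 6102 with d-SMG, 20334 with GAG and 9588 with Alg on day 3. Their sums were 43436 CPM in the control, 26648 with d-SMG, 7822 with GAG and 10943 with Alg on day 7, and 30953 CPM in the control, 17127 with d-SMG, 9244 with GAG and 16057 with Alg on day 14. The control was highest for these too on days 7 and 14, and their part in the result was not tested. *Cxcr4* stayed between 4.20 and 12.4 CPM, and *Ackr3* was highest in the control and d-SMG libraries of day 3 (22.0 and 21.1 CPM) and lowest in the control of day 7 (5.28 CPM).

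*Cxcl13*, the B cell ligand of CXCR5, had 28.5 CPM in the control, 6.41 with d-SMG, 18.8 with GAG and 13.4 with Alg on day 3. It had 52.7 CPM in the control, 27.6 with d-SMG, 15.3 with GAG and 39.0 with Alg on day 14, and was lower than the control in 8 of 9 dressing libraries. Its d-SMG ratio on day 3 was −2.15 (−2.51 to −1.81). *Cxcr5* stayed between 1.06 and 3.75 CPM. *Cxcl16*, a membrane-bound ligand of CXCR6, stayed between 27.8 and 69.6 CPM over the 12 libraries. Its receptor *Cxcr6*, carried by T cells, was higher on day 14 than on day 3 over the 4 treatments, by 1.89 ± 0.53 (SE), adjusted p = 0.902 in edgeR's quasi-likelihood test. All 4 treatments shared that direction, but Alg had only 13 reads on day 3 and 16 on day 14, and d-SMG day 3 had 3. *Cxcr6* had 0.425 CPM in the control, 0.25 with d-SMG, 1.13 with GAG and 0.642 with Alg on day 3. On day 14 it had 1.89 CPM in the control, 3.5 with d-SMG, 3.25 with GAG and 1.01 with Alg.

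*Ccl21* and *Ccl19* encode the ligands of CCR7, which guides dendritic cells and T cells into lymphatic vessels. *Ccl21* had 35.6 CPM in the control, 6.83 with d-SMG, 45.0 with GAG and 34.3 with Alg on day 3. It had 11.2 CPM in the control, 36.4 with d-SMG, 31.2 with GAG and 21.4 with Alg on day 7. On day 14 there were 71.5 CPM in the control, 50.6 with d-SMG, 83.1 with GAG and 22.6 with Alg. The d-SMG library of day 3 stood far below the others of that day, with a ratio of −2.38 (−2.73 to −2.05), and *Ccl19* had 1 read there beside 46 in the control. On day 7 the control was the lowest library, and the ratios were 1.70 (1.46 to 1.95) for d-SMG, 1.48 (1.24 to 1.72) for GAG and 0.94 (0.66 to 1.22) for Alg. Lymphatic endothelial markers (4 of 4) summed to 110 CPM in the control, 125 with d-SMG, 61.1 with GAG and 82.7 with Alg on day 3, with a median log2 ratio of −0.15 for d-SMG over the 4 markers. Their part in the result was not tested. *Ccr7* had 80 in the control, 9 with d-SMG, 26 with GAG and 23 with Alg on day 3 (reads) and 13 in the control, 47 with d-SMG, 1 with GAG and 30 with Alg on day 14, with d-SMG ratios of −2.18 (−3.36 to −1.19) and 2.22 (1.31 to 3.23).

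The remaining members, like *Ccr1*, *Ccl3*, *Ccl4*, *Ccl7*, *Ccl19*, *Ccl22* and *Ccl24* above, are outside the rule for named genes, and those given were picked after their values were seen. *Cx3cr1*, the monocyte receptor of fractalkine, had 68 in the control, 21 with d-SMG, 16 with GAG and 14 with Alg on day 3 (reads). It had 166 in the control, 72 with d-SMG, 17 with GAG and 12 with Alg on day 7, and 23 in the control, 26 with d-SMG, 2 with GAG and 22 with Alg on day 14. Levels were over 4-fold lower than the control with GAG and Alg on day 7, with log2 ratios of −4.70 (−5.51 to −3.98) and −3.82 (−4.80 to −2.98). Over the days, edgeR's quasi-likelihood test gave −3.06 ± 0.87 (SE), adjusted p = 0.418 for GAG. Its ligand *Cx3cl1* stayed between 2.0 and 8.7 CPM. *Ccl27*, the keratinocyte ligand of CCR10, was at least 4-fold higher in d-SMG day 14 and in the GAG libraries of days 7 and 14, and at least 4-fold lower in d-SMG day 3. *Ccl20*, the CCR6 ligand of epithelium, ranged from 0.08 to 3.53 CPM. *Cxcl17*, a mucosal ligand, had 60 reads in the control of day 3 and 0 with d-SMG and Alg, at least 10.2-fold and 17.2-fold lower. Among receptors, *Ccr6*, the partner of *Ccl20*, was higher on day 14 than on day 3 by 1.09 ± 0.37 (SE), adjusted p = 0.902 in edgeR's quasi-likelihood test, and the scavenging receptors *Ackr1*, *Ackr2* and *Ackr4* together ranged from 5.69 to 23.2 CPM. *Ccl1*, *Ccl25*, *Ccl28*, *Xcl1*, *Xcr1*, *Ccr1l1*, *Ccr8*, *Ccr9* and *Ccr10* stayed under 1 CPM in every library.

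Summed over all 33 ligands, the level on day 3 was 590 CPM in the control, 279 with d-SMG, 396 with GAG and 326 with Alg. On day 14 it was 533 CPM in the control, 518 with d-SMG, 495 with GAG and 479 with Alg. On day 7 it was 533 CPM in the control, 520 with d-SMG, 355 with GAG and 264 with Alg. The ligand sums were thus lower with each dressing on day 3, lower with GAG and Alg on day 7 and closest together on day 14. A few genes weigh most in these sums. *Cxcl12* alone had 233 CPM in the control of day 7 and 223 in that of day 14, and *Cxcl14* had 192 CPM in GAG day 14. With d-SMG on day 14, 20 of 29 ligands with enough reads lay above the control (median log2 ratio 0.95), while the ligand sum lay below it. The sums therefore do not stand for the ligands as a family. The sums over the 23 receptors were 228 CPM in the control, 206 with d-SMG, 173 with GAG and 107 with Alg on day 3. They were 140 CPM in the control, 232 with d-SMG, 90.4 with GAG and 71.3 with Alg on day 7 and 172 CPM in the control, 191 with d-SMG, 57.9 with GAG and 196 with Alg on day 14. They were highest with d-SMG on day 7 and, on day 14, lowest with GAG.

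Beside the members stood 42 further genes of the pathway, of which 38 were tested. They comprised other ligands and receptors (5), signal transduction (17), ligand processing (5) and inducers (15). None passed an adjusted p of 0.05 in any contrast of edgeR's quasi-likelihood test. At an unadjusted p under 0.05, 0 were higher and 7 lower with GAG, 0 and 1 with Alg, 0 and 5 with the 3 dressings together, and 0 and 0 with d-SMG and between days. Of all genes, in either direction, 8.98% had such a p for GAG, 2.88% for Alg, 4.5% for the 3 dressings together and 1.29% for d-SMG. Between days the shares were 1.62% to 4.79%. The 7 lower with GAG were *Pf4*, a platelet chemokine, *Gng2*, *Arrb1*, *Pik3cg*, *Dock2* and *Elmo1*, which pass on the receptor signal, and *Irf1*. Those lower with the dressings together included *Irf1* and *Stat2*, both interferon regulators, *Pik3cg* and *Rac2*. For *Irf1* edgeR gave −0.86 ± 0.33 (SE), adjusted p = 0.967. The median log2 fold change of the 38 was −0.21 for d-SMG, −0.74 for GAG and −0.55 for Alg, where the medians of all genes were 0.02, −0.004 and −0.02 and those of the 42 members 0.18, −0.07 and −0.25.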

How the data were processed

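RNA of rat wound tissue was sequenced as stranded, rRNA-depleted, paired-end libraries, 1 for each of 4 treatments on each of 3 days. The authors deposited a table of read counts per gene, not normalized, and a table of FPKM values, which the authors scaled by gene length and library size. The submitters' processing notes name bcl2fastq, FastQC, TopHat2 and edgeR. Versions, genome build, annotation and counting rule are not given in the sources used here, so reads of near-identical genes may be split in an unknown way. Each table held 1 further column of values that matched no sample and was not used.

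Counts were analysed with edgeR 4.0.16 in R 4.3.3 (TMM, filterByExpr by day, quasi-likelihood F-test with robust dispersion, terms for treatment and day, Benjamini-Hochberg over 15354 genes, threshold 0.05, two-sided). Days served as replicates of a treatment and treatments as replicates of a day, so an effect that differs by day counts as spread. For single days, ratios of TMM-normalized CPM were taken where a pair held at least 10 reads, with counts under 3 set to a floor of 3 in counts and medians, and with exact conditional intervals at 95% confidence, which cover counting error only. Counts of 1 or 2 are given as the raw ratio and counts of 0 as a bound. Totals were 13748887 to 38302461 reads per library. The edgeR procedure was also run on simulated counts. These had less spread between libraries than the common biological variation of 0.49 estimated here, and changes alike on every day. That run therefore does not show what the test can find in these data. Alternatives used DESeq2 1.42.0, limma 3.58.1 on log2(FPKM + 1) or log2(FPKM + 0.1), other scalings and filters, and left-out days, treatments or libraries.

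The genes, gene lists and marker lists were chosen with earlier results of these data known. By rule, values were given for members called in any contrast, the 12 members with the highest mean FPKM, members at least 4-fold from the control in the same direction in all 3 dressings of a day with at least 20 reads in the highest library, the 3 largest differences each way for d-SMG on each day with at least 50 reads, the receptor or ligand partners of these, and *Ccl5*. The rule named 31 members (19 ligands, 12 receptors), and 1 of them and 1 pathway gene are not reported here. Promoters came from the RefSeq table of GRCr8. Figures were drawn with matplotlib 3.10.9.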

Additional observations from a re-analysis of the deposited data

Results flagged for a closer look

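Among the 4 libraries of a day, 1 library stood apart from the other 3 by Dixon's criterion in 2 of 77 groups of 4 tested, where chance gives about 1 in 20. *Ccl21* had 6.83 CPM in d-SMG day 3 and 34.3 to 45 CPM in the other libraries of that day. *Ackr3* had 5.28 CPM in the control of day 7 beside 9.65 to 10.9 CPM.

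All 3 dressing libraries lay on one side of the control on one day and on the other side on another day for 14 of the 41 members with at least 10 reads in every pair of at least 2 days (34.1%), beside 28.4% of all genes with such reads. The 6 of them that the rule for named genes had picked are given here. The 3 dressings of a day share the control library, and the difference between days was not tested. *Cxcl10* had a median log2 ratio of the 3 dressings to the control of −5.96 on day 3, 3.19 on day 7 and −0.728 on day 14. For *Cxcl1* the median was −0.667 on day 3 and 3.98 on day 14, and for *Cxcl6* −3.42 on day 7 and 3.01 on day 14. The medians of *Ccl2* were −1.47 on day 3, 0.667 on day 7 and 1.65 on day 14. *Cxcl16* gave −0.928, −0.362 and 0.353 on days 3, 7 and 14, and *Ackr3* gave −0.516, 0.954 and −0.606. On day 14 the smallest single ratios were 0.01 for *Cxcl6* and 0.00 for *Cxcl16*, both with GAG. Scaling by library size in place of TMM turned these to −0.38 and −0.39, and also turned GAG on day 3 for *Cxcl1* (0.04), d-SMG on day 7 for *Cxcl16* (0.05) and d-SMG on day 14 for *Cxcl10* (0.07), while the 3 dressings of *Ccl2* and *Ackr3* kept their directions on every day.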

How the results depend on the processing

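No member passed the adjusted threshold of 0.05 in any of the 7 contrasts under other size factors, library-size scaling, no filter, limma on FPKM, no term for day or treatment, each day or treatment left out in turn, or, as alternatives chosen after seeing the data, without the GAG day 14 or the d-SMG day 3 library. DESeq2 called 3 members for GAG (*Cx3cr1* −3.06, *Cxcl14* 2.05, *Cxcl6* −3.53, log2). Its calls over all genes were 289 for GAG, 8 for d-SMG, 83 for Alg and 134 for the 3 dressings together. An unadjusted p under 0.05 gave 2, 7, 3 and 6 members for d-SMG, GAG, Alg and the 3 dressings, and 6, 4 and 3 for day 7 against 3, day 14 against 7 and day 14 against 3. Leaving out each day in turn, these counts ran from 2 to 5 for d-SMG (5 without day 3, 4 without day 14), 2 to 10 for GAG (10 without day 3, 2 without day 7), 3 to 7 for Alg (7 without day 14) and 5 to 8 for the 3 dressings. Leaving out each treatment, day 7 against 3 ran from 0 (without the control) to 10 (without GAG; 3 without d-SMG), day 14 against 7 from 2 (without GAG) to 8 (without Alg), and day 14 against 3 from 4 to 7 (without GAG). Without the GAG day 14 library alone, GAG had 4, d-SMG 3 and day 14 against 7 had 2. Without the d-SMG day 3 library, day 14 against 7 had 7.

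Of the counts past 4-fold in single days, 2-fold in its place gave 21, 21 and 17 members on day 3 (d-SMG, GAG, Alg), 19, 26 and 21 on day 7, and 21, 21 and 17 on day 14. On log2(FPKM + 1) the counts were 7 (d-SMG day 3), 6 (Alg day 3), 1 (d-SMG day 7), 4 (GAG day 7), 4 (Alg day 7), 6 (d-SMG day 14) and 4 (Alg day 14). An exact test in edgeR at an assumed biological variation of 0.3 gave 7 for Alg day 3, 1 for d-SMG day 7 and 3 for Alg day 7. Library-size scaling gave 5 for d-SMG day 7, and a minimum of 50 reads gave 1 for d-SMG day 7 and 4 for Alg day 7. The cause of these shifts was not tested. Of all counts under alternatives, 116 stayed within 1.5 times and 30 did not. This tally pools the single-day counts with those of the 7 contrasts, where 0 called under both settings counts as staying. It therefore does not measure how steady the single-day counts were. The fold changes followed were those of members with an unadjusted p under 0.05 in the main edgeR quasi-likelihood test. Of these under alternatives, 409 kept their side of the adjusted threshold, 3 passed it and 0 changed sign. They were picked by p in the same data and none had passed the threshold, so this tally shows little about how steady they are. The day was a term of every treatment contrast, and leaving that term out called 0 members. Beyond it, no paired analysis was possible because each treatment has 1 library per day and the labels give no replicate numbers. Members with few reads, such as *Cxcr2*, *Ccr4* and *Cxcl11*, limit what single-day ratios can show.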
